A study of Mus musculus with 8 samples.

Results

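The 9 genes described here, Car1, Car2, Eng, Epor, Tfrc, Hba-a1, Hbb-b1, Alas2 and Ermap, encode proteins that build or mark the red cell lineage, and they were taken by name from the 34199 genes counted in each library. All 9 were found in the count tables, 4 of them (Tfrc, Epor, Eng and Car2) passed the filter on low counts among 13080 genes in all, and 5 did not. The libraries were bulk RNA-seq of iGMPs, mouse granulocyte-macrophage progenitors from C57Bl/6 Lys-GFP bone marrow that self-renew while an ER-HOXA9 fusion protein is held active by estradiol. The design had 4 groups of 2 libraries: uninduced cells at 0 h in estradiol at 150 ng/ml, CAF-1 OFF cells that were kept in estradiol while 500 µM IPTG induced an shRNA against Chaf1b for 48 h, HOXA9 OFF cells without estradiol for 48 h, and an IPTG-treated control at 48 h. The comparisons ask how the red cell genes of a myeloid progenitor respond when the CAF-1 histone chaperone is suppressed, and when the transcription factor that holds the progenitor state is removed. All groups carry the fusion transgene, and the study worked with clonal lines. The labels do not say which shRNA the IPTG control carried, whether it was grown in estradiol, or whether libraries of a group came from separate cultures. The supplement speaks of independent sub-clones for its RNA-seq tracks, but the labels tie no library to a sub-clone, so p-values measure the spread between these libraries only.

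In red cell development, progenitors first gain the receptors for erythropoietin and transferrin and then make heme, globin and membrane skeleton. Epor encodes the erythropoietin receptor, which signals through JAK2 and STAT5, and Tfrc the transferrin receptor, which brings iron into dividing cells and especially into erythroblasts. Eng encodes endoglin, a co-receptor for TGF-beta family ligands found on early erythroid progenitors and on endothelium, and Car1 and Car2 encode carbonic anhydrases, which interconvert CO2 and bicarbonate. Alas2 encodes the erythroid enzyme of the first step of heme synthesis, Hba-a1 and Hbb-b1 encode adult alpha and beta globin, and Ermap encodes the membrane protein that carries the Scianna blood group.

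Total gene counts ranged from 14044284 to 22423837 per library. Chaf1b, the target of the shRNA, stood at 96.8 and 100.2 CPM (counts per 1000000 scaled counts of the library) for the uninduced pair of libraries, 95.1 and 102 CPM for the IPTG control, 18.7 and 9.71 CPM for the CAF-1 OFF pair, and 48.3 and 41.0 CPM for the HOXA9 OFF pair. With CAF-1 OFF the fall was 6.94-fold (log2 -2.79 ± 0.27 SE, adjusted p = 0.00236, edgeR quasi-likelihood test) and with HOXA9 OFF 2.21-fold (adjusted p = 0.00574). Markers of the granulocyte-macrophage progenitor named by the labels were abundant, with 8 genes summing to 10760 to 14840 CPM in uninduced cells.

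Levels of the 9 genes set them in 3 classes in the uninduced progenitor. Per kilobase of merged exon, Tfrc stood at a mean of 100.6 CPM and Car2 at 40.5 CPM, Epor at 0.834 CPM and Eng at 0.659 CPM, and the other 5 genes at or near 0. Both libraries kept this order among the 4 detected genes. In CAF-1 OFF cells the order was Tfrc at 96.9, Car2 at 64.3, Eng at 6.78 and Epor at 2.35 CPM per kilobase, so that Eng and Epor had changed places. In HOXA9 OFF cells Tfrc remained highest at 54.8 CPM per kilobase, while Car2 at 1.43 and Epor at 1.14 overlapped between libraries and Eng was lowest at 0.275. In the IPTG control Eng at 0.706 and Epor at 0.569 CPM per kilobase also overlapped.

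**Figure D1:**
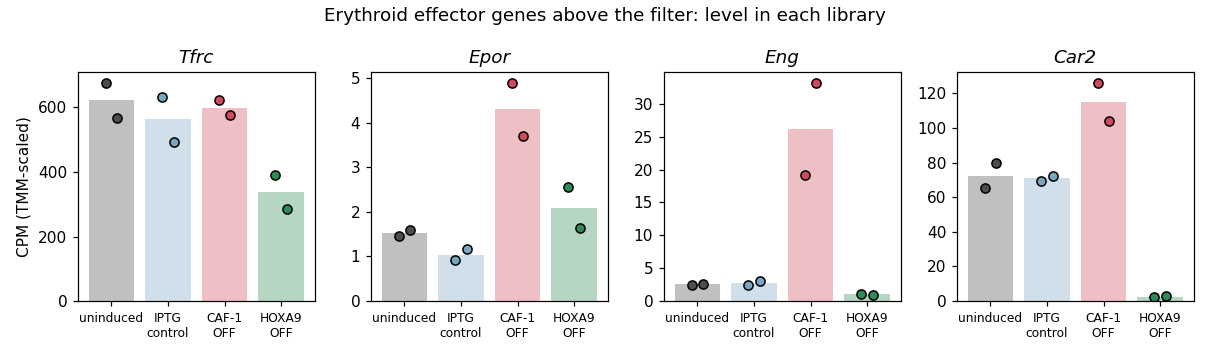
Level of each erythroid effector gene that passed the filter, in CPM scaled by TMM on a linear axis that starts at 0; points are libraries and bars are means of 2 libraries in uninduced, IPTG control, CAF-1 OFF and HOXA9 OFF cells. Eng and Epor are highest in CAF-1 OFF cells, Car2 is near 0 in HOXA9 OFF cells, and Tfrc is lower in HOXA9 OFF cells than in the other 6 libraries.

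The results turn on a pair of receptor genes that rose from low levels in CAF-1 OFF cells, and on Alas2 as a late gene that stayed near the limit of detection, so the promoter windows of Eng, Epor and Alas2 are shown. Each runs from 250 bases before to 50 bases after the start of transcription, from RefSeq on GRCm38.p6, on the strand of the gene. Capitals mark AGATAA (the motif read by GATA factors) and CCACCC (the CACCC box, read by Krüppel-like factors) on either strand, where the reverse forms read TTATCT and GGGTGG.
Eng, chr2:32646345-32646644, plus strand: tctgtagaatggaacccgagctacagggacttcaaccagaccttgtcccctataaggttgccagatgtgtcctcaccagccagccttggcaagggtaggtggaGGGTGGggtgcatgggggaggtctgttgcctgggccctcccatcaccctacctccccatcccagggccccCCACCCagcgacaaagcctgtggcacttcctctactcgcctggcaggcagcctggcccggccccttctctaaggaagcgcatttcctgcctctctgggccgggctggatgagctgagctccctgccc
Epor, chr9:21963527-21963826, minus strand: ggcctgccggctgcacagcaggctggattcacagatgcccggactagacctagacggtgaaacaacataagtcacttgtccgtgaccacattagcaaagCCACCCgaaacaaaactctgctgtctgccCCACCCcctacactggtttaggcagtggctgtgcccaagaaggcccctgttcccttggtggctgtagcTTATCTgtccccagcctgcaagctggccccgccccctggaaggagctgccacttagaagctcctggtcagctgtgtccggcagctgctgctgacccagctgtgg
Alas2, chrX:150547167-150547466, plus strand: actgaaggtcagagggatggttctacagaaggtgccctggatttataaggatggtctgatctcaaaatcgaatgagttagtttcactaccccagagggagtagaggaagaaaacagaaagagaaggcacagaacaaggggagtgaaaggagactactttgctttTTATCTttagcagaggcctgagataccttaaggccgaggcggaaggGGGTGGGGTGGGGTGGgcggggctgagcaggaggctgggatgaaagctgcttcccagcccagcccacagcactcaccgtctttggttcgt
Epor and Alas2 each held 1 AGATAA match and Eng held 0, while CCACCC matched 2 times in Eng, 2 times in Epor and 3 times in Alas2, where the matches overlap each other. Of 32851 promoter windows of this length, 11.2% held AGATAA and 31.5% held CCACCC, and the related form TGATAA, in 9.05% of windows, matched in those of Hba-a1 and Ermap. CCGGAAG, an ETS factor motif present in 8.86% of windows, matched in no window of the members that had an entry (Tfrc, Epor, Eng, Alas2, Hba-a1 and Ermap). Car1, Car2 and Hbb-b1 had no entry. The matches describe letters only, and Epor, which rose, and Alas2, which stayed at or near the floor, both held the GATA and CACCC letters.

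In CAF-1 OFF cells 3 of the 4 tested genes (Eng, Epor and Car2) rose against uninduced cells and 0 fell, where 10.5% of all 13080 tested genes were called higher. Calls required 1.5-fold or more in either direction and an adjusted p under 0.05. Each of the 4 would also have passed the filter without the CAF-1 OFF libraries. The median log2 fold change was 1.08 over the 4 genes and 0.01 over all tested genes. In bulk RNA a change in how many cells express a gene and a change in RNA per cell cannot be told apart. Without uninduced replicate 1, CAF-1 OFF replicate 1 or CAF-1 OFF replicate 2 the count fell to 1 gene, Eng, and the calls over all genes fell from 1836 to 157 without uninduced replicate 1 and to 272 without CAF-1 OFF replicate 2.

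Eng, the endoglin gene (mm9 chr2:32502115-32538189), rose most among the 4 genes. The uninduced libraries held 55 and 62 reads, the IPTG control 34 and 50, the CAF-1 OFF libraries 366 and 636, and the HOXA9 OFF libraries 21 and 20. Scaled, these were 2.45 and 2.65 CPM, 2.40 and 3.07 CPM, 19.3 and 33.2 CPM, and 1.14 and 0.991 CPM. Both CAF-1 OFF libraries were far above the other 6, though they differed from each other by more than the libraries of any other group (26.2 ± 9.88 CPM, SD, n = 2). The log2 fold change against uninduced cells was 3.36 ± 0.315 (SE, adjusted p = 0.00224, edgeR), and it was called whichever single library was left out, with values from 2.91 to 3.68. Against the IPTG control it was 3.26 ± 0.318 (adjusted p = 0.00264, edgeR). In HOXA9 OFF cells Eng fell by 1.26 on the log2 scale (SE 0.332, adjusted p = 0.013, edgeR). That fall was not called without uninduced replicate 2 (adjusted p = 0.0538) or without HOXA9 OFF replicate 2 (adjusted p = 0.0629).

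Epor, the erythropoietin receptor gene (mm9 chr9:21763343-21768020), was detected in every library at few reads. Uninduced cells held 33 and 37 reads (1.47 and 1.58 CPM), the IPTG control 13 and 19 reads (0.918 and 1.16 CPM), CAF-1 OFF cells 93 and 71 reads (4.89 and 3.71 CPM), and HOXA9 OFF cells 47 and 33 reads (2.55 and 1.64 CPM). The CAF-1 OFF libraries were the highest, and no group overlapped another, though HOXA9 OFF replicate 2 lay close to uninduced cells. Against uninduced cells the CAF-1 OFF log2 fold change was 1.49 ± 0.353 (adjusted p = 0.0257) and against the IPTG control it was 2.04 ± 0.373 (adjusted p = 0.0142, edgeR). Leaving out any of the 4 libraries compared ended the call against uninduced cells (adjusted p from 0.0969 to 0.135) and against the IPTG control (from 0.0592 to 0.096), with the direction kept. In HOXA9 OFF cells Epor gave a log2 fold change of 0.45 ± 0.356 and was not called (adjusted p = 0.308, edgeR).

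Car2, carbonic anhydrase 2 (mm9 chr3:14886426-14900769), gave the largest contrast between the 2 perturbations among the 4 genes. The uninduced libraries held 1464 and 1862 of its reads, the IPTG control 985 and 1176, the CAF-1 OFF libraries 2398 and 1990, and the HOXA9 OFF libraries 42 and 57. The levels were 65.1 and 79.6 CPM, 69.6 and 72.1 CPM, 126 and 104 CPM, and 2.28 and 2.82 CPM in the same order. The CAF-1 OFF libraries lay above all others and the HOXA9 OFF libraries far below all others. The rise in CAF-1 OFF cells was 1.59-fold (log2 0.67 ± 0.149, adjusted p = 0.0213, edgeR), close to the 1.5-fold limit. It was not called without uninduced replicate 1 (log2 0.53, adjusted p = 0.133), CAF-1 OFF replicate 1 (0.50, 0.114) or CAF-1 OFF replicate 2 (0.80, 0.0756). The fall in HOXA9 OFF cells was 28.2-fold (log2 fold change -4.82 ± 0.189, adjusted p = 9.93e-06, edgeR) and was called under every alternative tried, with single libraries left out giving -4.98 to -4.67.

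Tfrc, the transferrin receptor gene (mm9 chr16:32609006-32632880), was by far the most expressed of the 9. The uninduced libraries gave 676 and 569 CPM, the IPTG control 632 and 494 CPM, the CAF-1 OFF libraries 623 and 576 CPM, and the HOXA9 OFF libraries 392 and 286 CPM. CAF-1 OFF and both control groups overlapped, whereas both HOXA9 OFF libraries lay below the other 6. The log2 fold change in CAF-1 OFF cells was -0.05 ± 0.185 against uninduced cells (adjusted p = 0.861) and 0.09 ± 0.186 against the IPTG control (adjusted p = 0.762, edgeR), neither larger than its error. In HOXA9 OFF cells Tfrc fell by 0.88 on the log2 scale (SE 0.187, adjusted p = 0.00488, edgeR). Of the 12 genes of a proliferation list 8 fell there too and 0 rose, with sums over the list of 5086 to 5720 CPM (uninduced), 4900 to 4954 CPM (CAF-1 OFF) and 2819 to 3961 CPM (HOXA9 OFF), and their part in the Tfrc result was not tested.

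**Figure D2:**
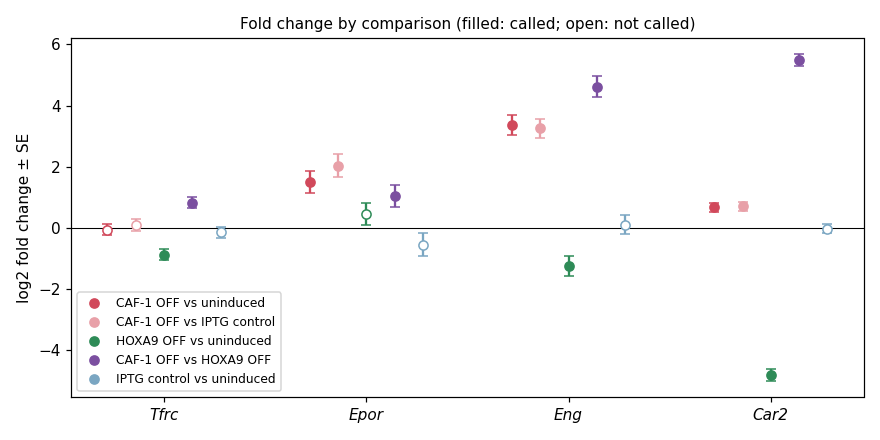
Log2 fold change with its standard error for Tfrc, Epor, Eng and Car2 in each of the 5 comparisons; filled points passed an adjusted p under 0.05 and 1.5-fold, open points did not. Eng, Epor and Car2 lie above 0 in CAF-1 OFF cells against either control, and all 4 genes are higher in CAF-1 OFF than in HOXA9 OFF cells.

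After HOXA9 inactivation 0 of the 4 tested genes rose and 3 fell (Car2, Eng and Tfrc), where 25.2% of all tested genes were called higher and 22.1% lower. With the IPTG control as reference, an alternative chosen after seeing the data, the same 3 genes fell (log2 fold changes -4.79, -1.36 and -0.73) and Epor gave 1.00 ± 0.375 (adjusted p = 0.0527, edgeR). Scaling by library size alone shifted the median of all tested genes to -0.18 in HOXA9 OFF cells against 0.01 with TMM, and changed the calls from 3293 higher and 2886 lower to 2715 higher and 3701 lower. The 3 falls of the members were called under both scalings.

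Against the IPTG control, CAF-1 OFF cells again had 3 of the 4 genes called higher (Eng, Epor and Car2) and 0 lower, beside 9.56% of all tested genes called higher. Leaving out any of the 4 libraries compared left 1 call, Eng. The IPTG control itself differed from uninduced cells in 0 of the 4 genes and in 0% of all genes tested with edgeR, where 100 of 13080 genes had an unadjusted p under 0.05 and DESeq2 called 4 genes. That share is below the 0.05 of evenly spread p-values, so the edgeR p-values of this comparison ran high. Epor was lower in both IPTG control libraries than in both uninduced libraries (log2 fold change -0.54 ± 0.376), with an unadjusted p = 0.188 in edgeR's quasi-likelihood test.

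The direct comparison of CAF-1 OFF with HOXA9 OFF cells called all 4 tested genes higher in CAF-1 OFF cells, beside 22.2% of all tested genes. The log2 differences were 5.49 ± 0.192 for Car2 (adjusted p = 1.34e-05), 4.62 ± 0.344 for Eng (adjusted p = 5.89e-05), 1.04 ± 0.349 for Epor (adjusted p = 0.0365) and 0.82 ± 0.187 for Tfrc (adjusted p = 0.00736), all from edgeR. The Epor difference was not called by DESeq2 (adjusted p = 0.122), without the filter on low counts (0.0571), when only these groups were fitted (0.0667), or without any single library other than HOXA9 OFF replicate 1 (0.0544 to 0.188).

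The other 5 members, Car1, Alas2, Hba-a1, Hbb-b1 and Ermap, were at or near the limit of detection in most libraries. A floor of 3 counts equals 0.128 to 0.212 CPM, depending on the library, and covers counting error only. Car1 (mm9 chr3:14766217-14778459) had 0 reads in every library. Alas2 (mm9 chrX:146981918-147005181) had 4 and 0 reads in the uninduced pair, 3 and 0 in the IPTG control, 3 and 2 in the CAF-1 OFF pair, and 1 and 0 in the HOXA9 OFF pair. The CAF-1 OFF pair overlapped both control groups and lay above the HOXA9 OFF pair, at or under 3 counts in each of these 4 libraries. Hba-a1 (mm9 chr11:32183511-32184465) had a single read, in the IPTG control, and Hbb-b1 (mm9 chr7:110975048-110976610) had 1 read in an uninduced library and 1 in a CAF-1 OFF library.

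Ermap (mm9 chr4:118848062-118862616) had 0 and 7 reads in the CAF-1 OFF pair, 0 and 2 in the HOXA9 OFF pair, 1 and 0 in the IPTG control and 0 in both uninduced libraries. Its 7 reads lay in CAF-1 OFF replicate 2 alone, so the group overlapped the others. With no filter on low counts, none of Alas2, Hba-a1, Hbb-b1 and Ermap was called in any comparison. At this depth a rise within the floor would not be detectable.

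The globin counts carry a further limit. Of the 50-base windows of the spliced transcript, 32.5% were unique to Hba-a1 and 47.7% to Hbb-b1, the rest being shared with Hba-a2 and Hbb-b2, whereas all windows of the other 7 members were unique. Reads that aligned to several places made up 41.9% to 51.5% of aligned reads per library and were not assigned to genes, so the globin pairs are uncertain. Hbb-b2, the neighbouring beta globin gene with 41.7% unique windows, was the only globin that passed the filter. Uninduced libraries held 3 and 6 of its reads, the IPTG control 3 and 0, CAF-1 OFF libraries 34 and 22, and HOXA9 OFF libraries 0 and 1. The 2 CAF-1 OFF libraries lay above the other 6. It passed the filter only through those libraries, so its call carries no weight and no test is given.

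**Figure D3:**
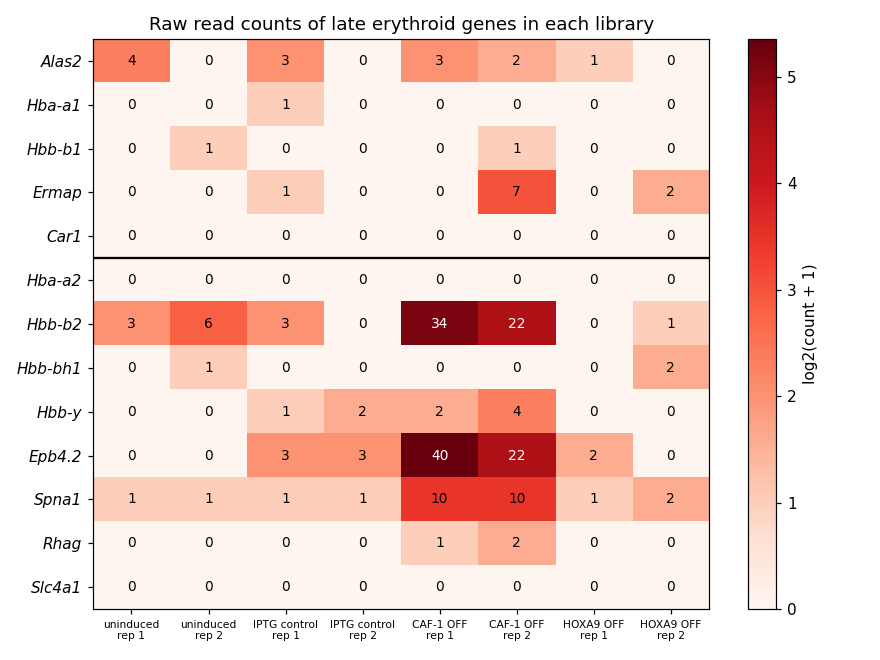
Raw read counts of late erythroid genes in each library, with the count printed in each cell and colour on a log2(count + 1) scale; above the line are the 5 members that did not pass the filter, below it other globins and 4 membrane genes picked for display after their values were seen. The members hold at most 7 reads in any library, while Hbb-b2, Epb4.2 and Spna1 are highest in both CAF-1 OFF libraries.

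The wider gene lists for each function were read in the same way, against 10.5% of genes called higher and 3.5% called lower in CAF-1 OFF cells, and against 25.2% higher and 22.1% lower in HOXA9 OFF cells, and both columns of values share the uninduced libraries. Single omitted libraries moved most of the list counts in CAF-1 OFF cells by over 1.5 times, with the lowest counts, alone or tied, without uninduced replicate 1, so the lowest and highest counts with a library left out are given in parentheses for most lists. For the membrane, carbonic anhydrase and endothelial lists in CAF-1 OFF cells, whose counts moved too, the stability of single genes is given instead. The counts in HOXA9 OFF cells moved as much in fewer lists, each time without a library of the groups compared. Of the globin list, 6 of 9 genes were in the tables, and Hbb-b2 alone was tested, through the CAF-1 OFF libraries only. Of 13 heme synthesis genes, 0 rose and 0 fell in CAF-1 OFF cells (median log2 fold change 0.02), and 0 were called with any single library left out. When HOXA9 was off, 4 heme genes rose (1 to 4, the lowest without HOXA9 OFF replicate 1, and 1, Alas1, when scaled by library size alone) and 3 fell (3 in every case), shares of the 13 near those of all genes tested. Alas1, the housekeeping counterpart of Alas2, rose to 808 and 527 CPM from 214 and 137 CPM (log2 fold change 1.93 ± 0.298), while Abcb6, a porphyrin transporter, Alad and Cpox, enzymes of the pathway, fell by 1.55, 1.31 and 1.27 on the log2 scale.

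Of 22 red cell membrane and blood group genes, 12 were tested, of which 5 passed the filter only through the CAF-1 OFF libraries and so were tested only because they were higher there. Of the 7 that did not depend on those libraries, 1 (Rhd) rose in CAF-1 OFF cells and 0 fell. Rhd, the Rhesus antigen gene, rose to 38.0 and 48.2 CPM from 10.8 and 12.2 CPM (log2 fold change 1.90 ± 0.176, adjusted p = 0.00224, edgeR), and was called with every library left out in turn. Among the genes that passed only through the CAF-1 OFF libraries, Add2 had 17 and 46 reads there, Epb4.2 had 40 and 22, and Spna1 had 10 and 10. Against a floor of 3 counts in the smaller uninduced library the folds were at least 6.70 and 18.0 for Add2, 15.8 and 8.61 for Epb4.2 and 3.94 and 3.91 for Spna1, given per library as a description with no test. Add2, Epb4.2 and Spna1 encode adducin, protein 4.2 and alpha spectrin of the membrane skeleton. Spna1 was named after its values were seen. Slc4a1, the band 3 anion exchanger of the mature red cell, and the blood group genes Kel and Icam4 had 0 reads in all libraries. After HOXA9 inactivation 0 of the 12 rose and 4 fell (2 to 4, the lowest without uninduced replicate 2): Aqp1, a water channel, by 3.31, Spnb1, beta spectrin, by 2.61, Gypc, glycophorin C, by 1.70 and Rhd by 0.61 on the log2 scale. The uninduced libraries held 87 and 492 reads of Spnb1 against 31 and 48 in the HOXA9 OFF pair. The CAF-1 OFF pair held 24 and 62, a mean of 2.25 CPM beside 2.03 CPM with HOXA9 OFF, so its low level was shared, without a call in CAF-1 OFF cells. The call of Spnb1 in HOXA9 OFF cells was lost in 5 of the 8 fits that left out a library, uninduced replicate 2 among them. The fall of Rhd, close to the fold limit, was not called without uninduced replicate 2, without HOXA9 OFF replicate 1 or when only the groups compared were fitted.

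Of 12 iron genes, 11 were tested beside Tfrc. Tfr2, the second transferrin receptor, rose in CAF-1 OFF cells to 82.4 and 73.0 CPM from 41.4 and 44.5 CPM (log2 fold change 0.86 ± 0.131), and fell to 21.7 and 18.8 CPM in HOXA9 OFF cells. Steap3, the endosomal ferrireductase, fell in both, by 1.11 in CAF-1 OFF and by 1.68 in HOXA9 OFF cells. Tfr2 was thus the 1 gene that rose (0 to 2) and Steap3 the 1 that fell (0 to 1) in CAF-1 OFF cells. When HOXA9 was off, 2 rose (2 to 3), led by the ferritin light chain gene Ftl1 at 2.17 on the log2 scale, and 4 fell (4 in every case), among them the transferrin gene Trf by 1.48.

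Of 13 genes of erythropoietin signalling, 12 were tested, and 4 rose and 0 fell in CAF-1 OFF cells (1 to 6 with a library left out). The 4 were Cish, Socs2, Socs3 and Pim1, all known STAT5 targets, of which Socs3 was named after its values were seen. Cish reached 3.84 and 5.48 CPM there, from 1.11 and 0.941 CPM when uninduced (log2 fold change 2.18 ± 0.391). Pim1 stood at 39.2 and 50.6 CPM against 12.0 and 9.45 CPM (2.07 ± 0.201), and was called with every library left out in turn. After HOXA9 inactivation 6 rose (5 to 6) and 2 fell (2 to 3), against 5 and 4 when scaled by library size alone. Pim1 and Cish rose there too, to 69.6 and 53.5 CPM and to 5.97 and 4.96 CPM. Socs2 went the other way, from 3.78 and 6.20 CPM when uninduced up to 19.9 and 22.0 CPM with CAF-1 OFF and down to 0.814 and 1.29 CPM with HOXA9 OFF. Kit, the SCF receptor gene, fell by 1.78 in HOXA9 OFF cells.

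Around endoglin, 16 of 18 TGF-beta and BMP receptor and target genes were tested, and 6 rose and 0 fell in CAF-1 OFF cells (2 to 7 with a library left out). Acvrl1, the ALK1 receptor that pairs with endoglin, rose to 2.31 and 3.45 CPM from 0.267 and 0.0855 CPM (log2 fold change 3.99 ± 0.595). The CAF-1 OFF pair held 44 and 66 of its reads, the IPTG control 8 and 6, and the uninduced pair 6 and 2, near the floor. Its call was lost without uninduced replicate 1 or CAF-1 OFF replicate 2. Tgfbr3, the co-receptor betaglycan, rose to 62.8 and 80.2 CPM from 15.5 and 17.7 CPM (2.11 ± 0.16). Id1, a target of BMP signals, rose to 25.6 and 32.7 CPM from 7.56 and 6.76 CPM (2.03 ± 0.222), and Tgfbr3 and Id1 were called with every library left out in turn. When HOXA9 was off, 8 rose (6 to 8) and 3 fell (1 to 3), both lowest without uninduced replicate 2, and 5 rose when scaled by library size alone. Acvrl1 and Id1 rose there too, by 5.89 and 2.26 on the log2 scale, whereas Tgfbr3, like Eng, fell (-0.68 ± 0.16).

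**Figure D4:**
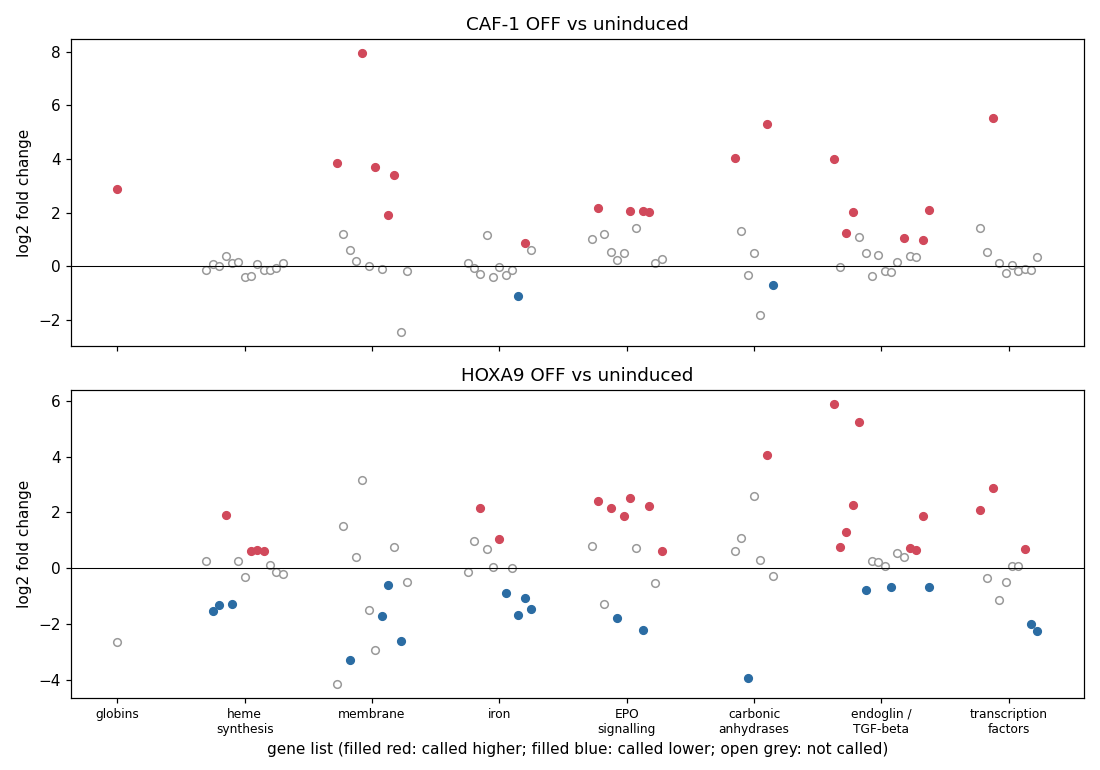
Log2 fold change of each tested gene of the erythroid gene lists (members excluded), in CAF-1 OFF cells (upper panel) and HOXA9 OFF cells (lower panel) against uninduced cells; filled points were called and open points were not. In CAF-1 OFF cells the heme genes lie near 0 and the called membrane, erythropoietin and endoglin list genes lie above 0 (4 of the 5 called membrane genes and the globin were tested only through the CAF-1 OFF libraries), while in HOXA9 OFF cells every list with several calls except the membrane list has calls in both directions.

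Beside Car1 and Car2, 7 of 14 other carbonic anhydrase genes were tested. 1 of them, Car11, with 24 and 21 reads in the CAF-1 OFF pair and at most 3 in any other library, passed the filter only through that pair. Of the other 6, Car7 rose from the floor with CAF-1 OFF, and Car9 fell by 0.69 on the log2 scale. Car7 had 31 and 79 reads there, at least 21.6-fold for the mean of the pair and less for replicate 1. Both folds given for Car7 are from the mean of a pair. The Car7 call was lost without uninduced replicate 1 or CAF-1 OFF replicate 2, and the Car9 call in 5 of the 8 fits that left out a library. With HOXA9 OFF the rise of Car7 was at least 8.89-fold (1 to 2 genes rose) and Car3 fell by 3.93 on the log2 scale (SE 0.227, adjusted p = 1.67e-05, edgeR). Car3 is the annotated neighbour of Car2, with Car1 beyond it. The uninduced libraries gave 26.5 and 27.5 CPM of Car3, the CAF-1 OFF libraries 25.4 and 17.8 CPM and the HOXA9 OFF libraries 1.79 and 1.73 CPM. Car2 and Car3 thus both fell in HOXA9 OFF cells, and Car2 alone was called higher in CAF-1 OFF cells (Car3 adjusted p = 0.261, edgeR). On the other side of Car2, Gm9733 went from 12 and 11 uninduced reads to 39 and 35 with CAF-1 OFF and to 842 and 457 with HOXA9 OFF. Sirpb1a, next along, had 0 reads in both uninduced libraries and 143 and 151 in the HOXA9 OFF pair, whose mean is at least 57.1-fold higher.

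**Figure D5:**
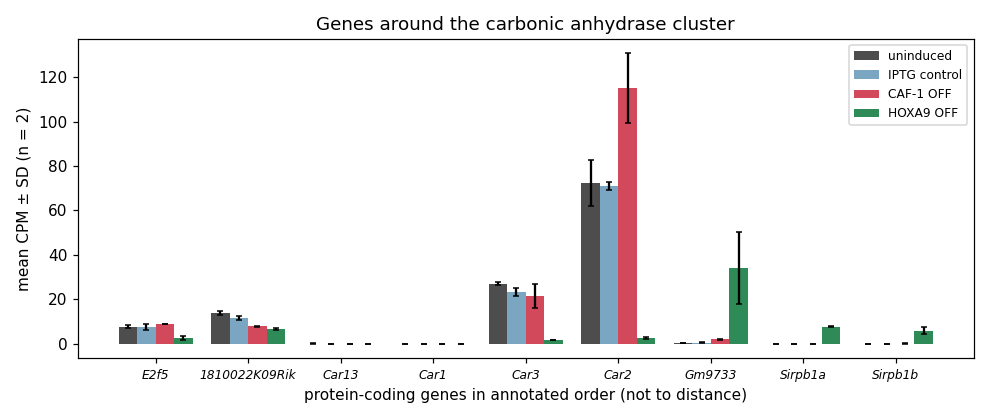
Mean CPM with SD (n = 2 libraries per group) of the genes around Car1 and Car2 in their annotated order, not to distance, on a linear axis that starts at 0. Car2 and Car3 are low in HOXA9 OFF cells, Gm9733, Sirpb1a and Sirpb1b are high there, and Car1 has no reads.

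Next to the alpha globin genes, Nprl3 had 219 to 422 reads and Mpg 67 to 136 reads per library, while Hba-x and Hba-a2 had 0 assigned reads throughout, with the limit on reads shared by Hba-a1 and Hba-a2 given above.

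Among 10 erythroid transcription factor genes, 1 rose in CAF-1 OFF cells and 0 fell, also with each library left out. Gfi1b, a repressor needed for red cells and platelets, rose to 18.0 and 35.2 CPM from 0.756 and 0.385 CPM (log2 fold change 5.53 ± 0.613, adjusted p = 0.00324, edgeR). Gata1, the master regulator, stood at 9.31 and 9.61 CPM against 5.29 and 1.84 CPM and was not called in CAF-1 OFF cells. Klf1, which binds CACCC boxes in globin genes and was named after its values were seen, was at 0.347 to 1.53 CPM in all libraries. After HOXA9 inactivation 3 rose (1 to 3, with 1 left without uninduced replicate 2 or HOXA9 OFF replicate 1), Gfi1b by 2.88, Gata1 by 2.09 and Nfe2 by 0.71, and 2 fell (2 in every case), Zfpm1 by 2.26 and Tal1 by 1.99 on the log2 scale. Scaled by library size alone, 2 rose and 4 fell.

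Markers of other blood cells moved with these genes, and their part in the results was not tested. Endoglin is also an endothelial protein: of 7 other endothelial markers 3 were tested, 2 of them (Tie1, with 25 and 19 reads in the CAF-1 OFF pair, and Esam) only through the CAF-1 OFF libraries, and the remaining gene, Pecam1, rose by 0.61 on the log2 scale in CAF-1 OFF cells (called in 4 of the 8 fits that left out a library). The list summed to 229 to 252 CPM (uninduced), 350 to 390 CPM (CAF-1 OFF) and 307 to 371 CPM (HOXA9 OFF), and 0 of the 3 tested were called in HOXA9 OFF cells (0 to 1). Nearly all of that sum was Pecam1, with 229 and 251 CPM (uninduced), 347 and 386 CPM (CAF-1 OFF) and 371 and 307 CPM (HOXA9 OFF). The defining markers Tek and Emcn had 0 reads everywhere, whereas Cdh5, the VE-cadherin gene, which did not pass the filter and was named after its values were seen, had 9 and 59 reads in the CAF-1 OFF pair and 0 in the other 6 libraries. Of 9 megakaryocyte markers 7 were tested and 4 rose in CAF-1 OFF cells, 1 of the 4 tested only through the CAF-1 OFF libraries. In HOXA9 OFF cells 5 rose and 1 fell, and both counts of rises moved when single libraries were left out. Of these 5, Vwf with 12 and 1081 reads and Ppbp with 18 and 306 rested mostly on HOXA9 OFF replicate 2. Itga2b, Gp9 and Gp1ba did not differ so between the HOXA9 OFF libraries. The list summed to 25.8 to 27.8, 196 to 225 and 133 to 195 CPM in the order uninduced, CAF-1 OFF, HOXA9 OFF. Of 8 mast cell and basophil markers 6 were tested and 2 rose in CAF-1 OFF cells (1 to 2), the proteases Mcpt8 by 2.96 and Cpa3 by 2.14 on the log2 scale, and in HOXA9 OFF cells 1 rose and Mcpt8 fell by 2.26, with sums of 187 to 261, 742 to 1119 and 351 to 367 CPM in the same order.

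Of 9 macrophage markers 8 were tested, and 3 rose in CAF-1 OFF cells (0 to 5) and 7 in HOXA9 OFF cells (4 to 7, the lowest without either uninduced library). Their sum was 36.4 to 57.7 CPM (uninduced), 68.2 to 182 CPM (CAF-1 OFF) and 1021 to 1668 CPM (HOXA9 OFF). All 7 neutrophil granule markers rose in HOXA9 OFF cells, also with each library left out, and 4 rose in CAF-1 OFF cells (2 to 5), with sums of 38.1 to 51.5, 178 to 264 and 5915 to 8718 CPM. Of the 8 progenitor markers 1 rose in CAF-1 OFF cells (0 to 2), and 1 rose (0 to 1) and 3 fell (3 to 5) in HOXA9 OFF cells. Of the 12 proliferation genes 1 rose in CAF-1 OFF cells (0 to 1) and 8 fell in HOXA9 OFF cells (6 to 9), where Mki67, named after its values were seen, went the other way without a call (log2 fold change 0.48 ± 0.175).

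The genes most like each member were found by Pearson's r of log2 CPM over the 8 libraries, among 10135 genes. The points share 4 groups, so r mostly ranks genes by their group means and is given as a description. For Eng these were Tgfbr3 (r = 0.996), Rhd (0.994), Gm17717 (0.993), Rcn3 (0.99) and Apoa2 (0.989). For Car2 they were Mtap and Paqr5 (both 0.999), Twist1 and Gimap1 (both 0.998) and Rtn4rl2 (0.997). For Tfrc they were Tra2a (0.994), Eri2 (0.991), Ect2 and Cenpk (both 0.989) and Cdk1 (0.987), and for Epor Pigg (0.96), Cchcr1 (0.956), Mapre2 and Qpctl (both 0.953) and Homez (0.946). Among the members themselves r was 0.885 between Tfrc and Car2, 0.691 between Eng and Epor, 0.69 between Eng and Car2, 0.545 between Eng and Tfrc, 0.062 between Epor and Car2 and 0.045 between Tfrc and Epor.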

How the data were processed

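Libraries were made with a strand-marking NEB kit. Reads were aligned with STAR to mm9 and counted per gene with HTSeq, which left out reads that aligned to several places. The strand setting of the counting is not given in the sources used here. The deposited values are raw counts, 1 table per library, with no normalization by the authors. Summary lines that name no gene were left out of library sizes (reads in no gene were 5.3% to 14.6% of uniquely aligned reads, the highest in IPTG control replicate 1). Groups came from the labels. Counts were scaled with TMM, filtered with filterByExpr by group, and fitted over all 8 libraries with a mean per group by edgeR 4.0.16 (glmQLFit, glmQLFTest) in R 4.3.3, with Benjamini-Hochberg adjustment over 13080 genes. Whether a gene passed the filter only through 1 group was read from how many libraries of the other groups met the filter's minimum. A call needed an adjusted p under 0.05 and at least 1.5-fold. The biological coefficient of variation was 18.9%. CPM used TMM-scaled totals and log2 CPM a prior count of 2. Folds from the floor set the group mean, or each library where given so, against 3 counts in the smaller library of the group at the floor. Levels per kilobase used merged exons of the mm9 annotation. DESeq2 1.42.0 and other settings were alternatives. The code was checked on simulated counts.

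The members and lists were chosen with earlier results of these data known. The alternatives applied to the lists, and IPTG control as the reference of HOXA9 OFF, were added after seeing the data. Named from each list, per comparison with uninduced cells, were at most 3 called genes of highest and 3 of lowest log2 fold change, genes at 0 that define a cell type, and the 5 genes most correlated with each tested member. Some called list genes are counted but not reported here. Duplicate libraries were looked for by a chi-square test of counts within groups, and none agreed within sampling noise (16.6 to 78.2 per degree of freedom). Promoter windows came from RefSeq (GRCm38.p6) by gene symbol, for 6 of the 9 members.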

Additional observations from a re-analysis of the deposited data

Results flagged for a closer look

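The direct comparison of CAF-1 OFF with HOXA9 OFF cells (edgeR's quasi-likelihood test, in which the uninduced libraries cancel) is given for 8 genes. They were the 4 tested members, all called in it, and genes of the erythroid lists. List genes were picked for being called in it and in opposite directions against uninduced cells, so their differences were fixed by the choice. Those differences are description only, and how many of all tested genes met the same rule was not counted. The log2 differences were 5.49 ± 0.192 for Car2, 4.62 ± 0.344 for Eng, 4.30 ± 0.434 for Socs2, 2.79 ± 0.166 for Tgfbr3, 2.51 ± 0.181 for Rhd and 1.94 ± 0.136 for Tfr2. In these 6 genes the level rose in CAF-1 OFF cells and fell in HOXA9 OFF cells against uninduced cells. With a library left out, the call was lost at least once for the rises of Car2, Socs2 and Tfr2 and for the falls of Eng and Rhd. The difference was 1.04 ± 0.349 for Epor, which was called only in CAF-1 OFF cells and whose difference was lost with DESeq2 (adjusted p = 0.122), with no filter (0.0571), with only the groups compared (0.0667) and in 7 of the 8 fits that left out a library, and 0.82 ± 0.187 for Tfrc, which was called only in HOXA9 OFF cells. Mcpt8, a mast cell and basophil marker outside those lists, also rose in CAF-1 OFF and fell in HOXA9 OFF cells, with a difference of 5.22 ± 0.175. No cause was tested.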

How the results depend on the processing

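Over the fold changes of the 4 tested members in the 5 comparisons, 266 values under alternative settings kept their direction and their side of the threshold, 27 kept the direction and lost the call, and 6 changed sign. With a single library left out, the number of members called was 1 to 3 in CAF-1 OFF against uninduced cells and 1 to 3 against the IPTG control. At an adjusted p under 0.01 and 2-fold, the members called numbered 1 in each of CAF-1 OFF against uninduced, HOXA9 OFF against uninduced and CAF-1 OFF against the IPTG control, and 2 in CAF-1 OFF against HOXA9 OFF cells. The sign changes all came from leaving out a library and from values that were not called: Tfrc ranged from -0.178 to 0.072 in CAF-1 OFF against uninduced cells (0.001 without CAF-1 OFF replicate 2), from -0.336 to 0.021 in the IPTG control against uninduced cells and from -0.08 to 0.26 in CAF-1 OFF cells against the IPTG control, and in the IPTG control against uninduced cells Eng ranged from -0.087 to 0.263 and Car2 from -0.17 to 0.12. The cause was not tested. A minimum mean of 50 counts removed Epor.

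Replicate numbers were not taken to pair the libraries, since deviations from group means of same-numbered libraries correlated in only 3 of the 6 pairs of groups: 0.475 for uninduced with the IPTG control, 0.301 for uninduced with HOXA9 OFF and 0.316 for the IPTG control with HOXA9 OFF, against -0.044, -0.017 and 0.076 for CAF-1 OFF with uninduced, the IPTG control and HOXA9 OFF. With the replicate block, 3 members were called in CAF-1 OFF and 3 in HOXA9 OFF against uninduced cells, 0 in the IPTG control against uninduced cells, 3 in CAF-1 OFF cells against the IPTG control and 4 in CAF-1 OFF against HOXA9 OFF cells, as without it. In CAF-1 OFF against uninduced cells the block lowered the SE of Tfrc from 0.185 to 0.111 and left that of Epor at 0.35. The fits that left out a library had no block, so any difference shared by same-numbered libraries stayed in their error. With 2 libraries per group and as few as 13 reads of Epor, changes of the low genes are measured with wide error.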
